A study of Mus musculus with 24 samples.

Results

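Phospholipases A2 cut the middle fatty acid from membrane phospholipids and release free fatty acids, arachidonic acid among them, together with lysophospholipids. Secreted members act outside the cell, whereas cytosolic members of the Pla2g4 group act on membranes from within, and the freed fatty acid can go on to prostaglandins, leukotrienes and other lipid mediators. In the epidermis these lipids belong both to inflammatory signalling and to the barrier lipids of the stratified layers, and Pla2g4e differs from its relatives in acting mainly as an N-acyltransferase that makes the precursors of N-acylethanolamines.

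The genes described here were 8 phospholipase A2 genes of the 54087 gene symbols in the read count table: the cytosolic members Pla2g4e, Pla2g4f, Pla2g4d and Pla2g4b and the secreted members Pla2g2d, Pla2g2f, Pla2g2e and Pla2g3. They were picked by name from the table because the levels of Pla2g4e and Pla2g2d were higher in KO skin, so the KO differences of these genes are given as a description, and no p-value is printed for them. Of the 8 genes, 7 passed the low-count filter that left 17094 genes for testing, and Pla2g2e did not.

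The RNA-Seq libraries were prepared from the dorsal skin of E18.5 embryos (embryonic day 18.5, shortly before birth) of 3 genotypes of the desmoglein 1 cluster: WT (Dsg1+/+), HET (Dsg1+/-, 1 copy of the cluster removed) and KO (Dsg1-/-, both copies removed). Dsg1 is a desmosomal cadherin of the upper epidermis, and the KO animals die shortly after birth with peeling skin. The deletion took out the tandem Dsg1c, Dsg1a and Dsg1b genes by CRISPR/Cas9 editing in C57BL/6J zygotes, all carriers descend from 1 founder, the colony was kept on a C57BL/6 background, both sexes were used, and the deletion is present in every tissue from conception. The labels give no age, strain or litter for single embryos, and the skin was sequenced whole, so that fewer cells of a type and less RNA per cell cannot be told apart.

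The 24 libraries were summed to 15 samples, 5 per genotype, because 9 of the sample numbers occur in 2 title series, with and without a prefix. The samples held 19462843 to 33681853 counts in WT, 15279289 to 29805749 in HET and 20725874 to 33595618 in KO. Nothing in the labels says whether samples of a genotype came from separate litters, and p-values measure only the spread between these samples. In CPM, the read counts scaled to equal library size, the summed Dsg1 level of WT samples lay between 723 and 933, that of HET samples between 371 and 492 and that of KO samples between 0.103 and 0.902, so every sample matched its genotype label. The 2 libraries of WT replicate 2 did not look like 1 embryo, since 1 had 325 CPM of Y-linked transcripts and 0.264 CPM of Xist while the other had 0.155 and 567 CPM, respectively. Without that sample the KO minus WT difference was 1.32 for Pla2g4e and 1.23 for Pla2g2d on the log2 scale.

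The sequences upstream of Pla2g4e and Pla2g2d are shown because these are the members whose levels were higher together in KO skin although they lie on different chromosomes. Both are RefSeq sequences of GRCm38.p6 and cover the 250 bases before the annotated transcript start, written 5′ to 3′ on the strand of the gene, for Pla2g4e chr2:120245336-120245585 (minus strand) and for Pla2g2d chr4:138775485-138775734 (plus strand). Capitals mark the letters CANNTG, an E-box.
Pla2g4e: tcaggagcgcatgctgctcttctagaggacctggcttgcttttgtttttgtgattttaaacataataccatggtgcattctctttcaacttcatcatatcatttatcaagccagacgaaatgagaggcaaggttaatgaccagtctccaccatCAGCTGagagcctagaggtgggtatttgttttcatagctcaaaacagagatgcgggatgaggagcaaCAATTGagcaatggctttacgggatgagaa
Pla2g2d: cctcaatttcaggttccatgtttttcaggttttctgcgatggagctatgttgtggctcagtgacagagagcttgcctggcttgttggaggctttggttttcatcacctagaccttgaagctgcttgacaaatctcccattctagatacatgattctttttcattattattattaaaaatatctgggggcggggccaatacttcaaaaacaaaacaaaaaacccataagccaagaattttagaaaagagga
Promoter windows reaching from 250 bases before to 50 bases after the start were on hand for 6 of the 8 genes, the others being Pla2g3 and Pla2g4b. CANNTG, which reads the same on both strands, occurred in the windows of Pla2g4e, Pla2g2f and Pla2g2e, and in 72.3% of all 32851 windows. The AP-1 letters TGANTCA, also the same on both strands, occurred in the window of 1 member, Pla2g2e, and in 7.81% of all windows. The letters TATAAA, searched on both strands, occurred in the window of Pla2g4d alone among the members and in 13.6% of all windows. TTCNNNGAA, the letters bound by STAT factors, occurred in 0 of the 6 windows and in 8.30% of all windows. The Pla2g2d window held none of these 4 motifs, and the Pla2g4e window held only the E-boxes. The motifs did not overlap one another in these windows.

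**Figure D1:**
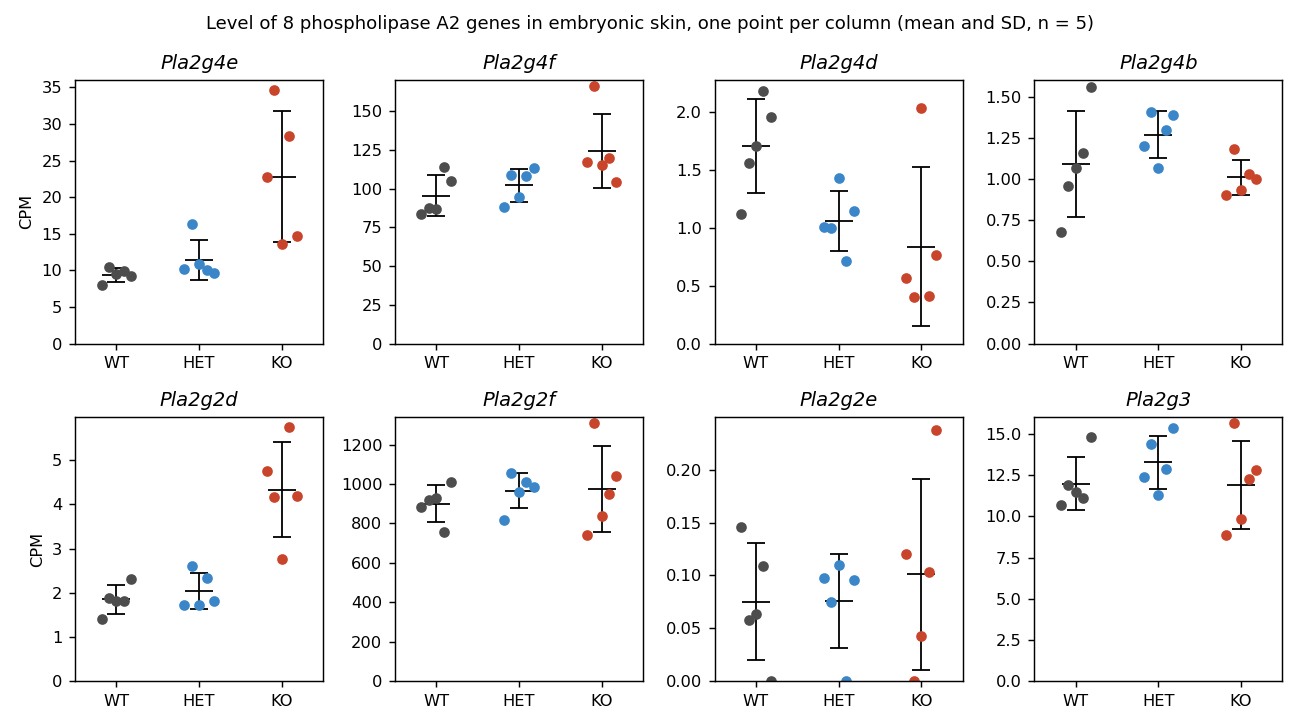
CPM of each of the 8 genes (vertical axis, linear from 0) in WT, HET and KO samples, 1 point per sample, with the mean and SD of 5 samples in black. KO samples lie above every WT sample for Pla2g4e and Pla2g2d, spread widely for Pla2g4d with 1 KO sample at 2.04 CPM, and overlap the WT samples for the other genes.

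Among the cytosolic members, Pla2g4e had the clearest separation between KO and WT. Its level was 7.96, 10.5, 9.55, 9.86 and 9.17 CPM in WT replicates 1 to 5. In HET replicates 1 to 5 it was 10.2, 16.3, 10.8, 10.1 and 9.67 CPM. In KO replicates 1 to 5 it was 22.7, 34.7, 13.6, 28.4 and 14.7 CPM. Every KO sample was above every WT sample, with KO replicates 3 and 5 nearest to the WT range, and HET replicate 2 was above both of them. The mean was 9.40 ± 0.943 CPM for WT, 11.4 ± 2.76 CPM for HET and 22.8 ± 8.98 CPM for KO (SD, n = 5), and the coefficient of variation was 10% among WT samples and 39.4% among KO samples. The fitted difference was 1.28 ± 0.23 between KO and WT and 1.00 ± 0.23 between KO and HET (log2, SE). Without KO replicate 2 the KO minus WT difference was 1.07, and without KO replicate 3 it was 1.42.

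Pla2g4f, a cytosolic phospholipase A2 encoded in the same cluster as Pla2g4e, was the most abundant cytosolic member. It stood at 83.5, 87.7, 86.6, 114 and 105 CPM in WT replicates 1 to 5 and at 117, 166, 115, 120 and 104 CPM in KO replicates 1 to 5. In HET the samples ran from 88.1 to 113 CPM with a median of 108 CPM. KO replicates 1 to 4 were above the highest WT sample and KO replicate 5 was not, so the genotypes overlapped. The fitted KO minus WT difference was 0.38 ± 0.12 (log2, SE), and 0.26 without KO replicate 2, the highest sample.

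Pla2g4d, another gene of this group known from inflamed skin, had the opposite order. Its level was 1.12, 1.56, 1.71, 2.18 and 1.96 CPM in WT replicates 1 to 5. In HET replicates 1 to 5 it was 1.01, 1.00, 1.43, 0.716 and 1.15 CPM. In KO replicates 1 to 5 it was 0.571, 0.406, 2.04, 0.411 and 0.762 CPM. Of the 5 KO samples, 4 were below every WT sample, whereas KO replicate 3 was within the WT range. The fitted KO minus WT difference was -1.03 ± 0.37 (log2, SE), and it was -1.66 without KO replicate 3, more than 1.5 times as large. Against HET the difference was -0.36 ± 0.38 with all samples and -0.99 without KO replicate 3. These values rest on few reads, 230 counts over all WT samples, 132 over HET and 102 over KO.

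Pla2g4b was low in every genotype, with WT samples between 0.679 and 1.56 CPM, HET samples between 1.07 and 1.41 CPM and KO samples between 0.902 and 1.18 CPM, and with a KO minus WT difference of -0.10 ± 0.20 (log2, SE). Its reads are uncertain because the annotation has a readthrough gene, Gm28042, that covers both Pla2g4b and its neighbour Jmjd7, and reads in shared exons could be split or dropped by the counting.

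**Figure D2:**
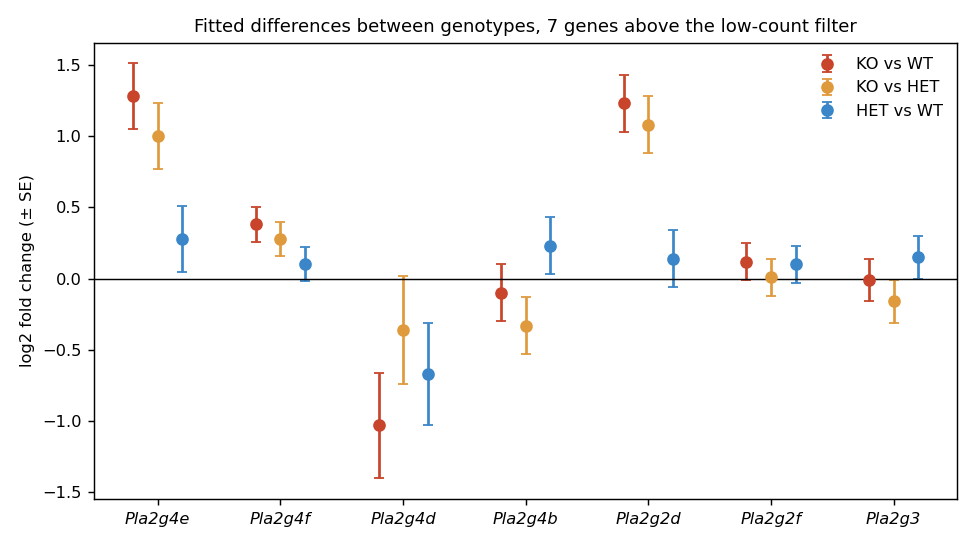
Fitted log2 fold change with its SE (vertical axis) for the 7 genes above the low-count filter, in KO vs WT (red), KO vs HET (orange) and HET vs WT (blue), from 5 samples per genotype. Pla2g4e and Pla2g2d lie near 1 or above in both KO comparisons, Pla2g4d lies at -1.03 in KO vs WT and -0.67 in HET vs WT, and the other genes stay within 0.4 of 0.

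Of the secreted members, Pla2g2d, which is known from dendritic cells and macrophages of lymphoid tissue, was low but separated KO from the other genotypes. It measured 1.41, 1.88, 1.80, 1.82 and 2.32 CPM in WT replicates 1 to 5. In HET replicates 1 to 5 it measured 1.72, 2.60, 1.73, 2.34 and 1.82 CPM. In KO replicates 1 to 5 it measured 4.75, 4.17, 2.77, 5.76 and 4.19 CPM. Every KO sample was above every WT and every HET sample, and KO replicate 3 was again the nearest to them. The fitted difference was 1.23 ± 0.20 between KO and WT and 1.08 ± 0.20 between KO and HET (log2, SE). The WT samples together held 247 counts of Pla2g2d and the KO samples 536.

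Pla2g2f, a secreted phospholipase A2 of suprabasal keratinocytes, was by far the most abundant member. Its WT samples measured 884, 918, 931, 757 and 1011 CPM for replicates 1 to 5, and its KO samples 743, 1311, 836, 949 and 1040 CPM. The HET samples ran from 817 to 1054 CPM. The KO samples spanned the WT range on both sides. The fitted KO minus WT difference of 0.12 ± 0.13 (log2, SE) was smaller than the spread between KO samples and was -0.02 without KO replicate 2.

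Pla2g3, a secreted enzyme of another structural group, ran from 10.7 to 14.8 CPM among WT samples, from 11.3 to 15.4 among HET samples and from 8.90 to 15.7 among KO samples, with a KO minus WT difference of -0.01 ± 0.15 (log2, SE). Its 3 genotypes overlapped throughout. Pla2g2e, a secreted member known from hair follicles and fat tissue, was at the limit of detection, with 10 counts over all WT samples, 10 over HET and 12 over KO. No sample held more than 5 counts of it and at least 1 sample of each genotype held 0, which allows up to 3 counts in that sample, so no fold change is given.

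At the thresholds used in the study, adjusted p of 0.1 or below together with a log2 fold change of 1 or above, 2 of the 7 genes counted as higher in KO than in WT, Pla2g4e and Pla2g2d, beside 0.135% of all genes tested. In KO against HET 1 of the 7, Pla2g2d, counted as higher, beside 0.0819% of all genes, and Pla2g4e did not meet the thresholds. Every KO sample lay above every WT sample for 2 of the 7 genes and for 1.61% of all genes, and below every WT sample for 0 of the 7 and for 1.76% of all genes. Because these comparisons served to choose the genes, these counts describe the choice and support nothing, and nothing is read from the shares.

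The comparison of HET with WT was not used in the choice and was tested, though it shares the WT samples with the KO comparison. None of the 7 genes passed an adjusted p of 0.1, where 0.00% of all genes did by edgeR's quasi-likelihood test. In this fit of all 3 genotypes 0 of the 7 had an unadjusted p below 0.05, where 1.58% of all genes did. That share is lower than a threshold of 0.05 would give with no differences at all. The test was thus strict in this comparison, and nothing is read from 0 of the 7. DESeq2 also called 0 of the 7. The largest HET minus WT difference was that of Pla2g4d, at -0.67 ± 0.36 (log2, SE), with an unadjusted p of 0.0834 and an adjusted p of 1 by edgeR. Without KO replicate 3 the Pla2g4d difference was again -0.67, with an SE of 0.23. With only HET and WT samples fitted, its SE was 0.22. The SE of 0.36 thus includes the spread of the KO samples, which are not part of this comparison. Pla2g4d did not pass an adjusted p of 0.1 in these fits either. In 3 of the 5 HET samples Pla2g4d was below every WT sample. Pla2g4e differed by 0.28 ± 0.23 (unadjusted p = 0.238, adjusted p = 1 by edgeR), and by 0.12 without HET replicate 2, and Pla2g2d by 0.14 ± 0.20 and by 0.03 without that sample. The genes other than Pla2g4d and Pla2g4e had HET minus WT differences between 0.10 and 0.23, all with an adjusted p of 1 by edgeR. The SEs of the 7 differences were 0.12 to 0.36 in the fit of all 3 genotypes (log2).

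Expressed per kilobase of exon, the levels of the 8 genes differed widely and kept much of their order across genotypes. In WT, Pla2g2f had 365 ± 37.5 CPM per kb and Pla2g4f 29.8 ± 4.19. Below them came Pla2g3 with 2.55 ± 0.344, Pla2g4e with 1.35 ± 0.136, Pla2g2d with 0.823 ± 0.144 and Pla2g4d with 0.463 ± 0.11 CPM per kb. Pla2g4b with 0.186 ± 0.0552 and Pla2g2e with 0.082 ± 0.0602 CPM per kb closed the order (SD, n = 5). In WT all neighbours in this order were separated except Pla2g4b and Pla2g2e, whose samples overlapped.

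In KO the upper end of the order was the same, with Pla2g2f at 396 ± 88.6 and Pla2g4f at 38.8 ± 7.46 CPM per kb. Pla2g4e came next at 3.28 ± 1.29, then Pla2g3 at 2.54 ± 0.572 and Pla2g2d at 1.93 ± 0.483 CPM per kb, and the samples of these 3 neighbours overlapped in turn. Pla2g4d at 0.227 ± 0.187, Pla2g4b at 0.173 ± 0.0185 and Pla2g2e at 0.11 ± 0.0987 CPM per kb also overlapped. Pla2g2f made up 91.1% ± 1.66 of the summed level per kb of the 8 genes in WT and 89.2% ± 1.49 in KO. The share of Pla2g4e was 0.34% ± 0.0496 in WT and 0.739% ± 0.237 in KO, and that of Pla2g2d was 0.205% ± 0.0292 in WT and 0.45% ± 0.145 in KO (SD, n = 5). The members higher in KO were thus a small part of the summed phospholipase A2 transcripts in either genotype.

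**Figure D3:**
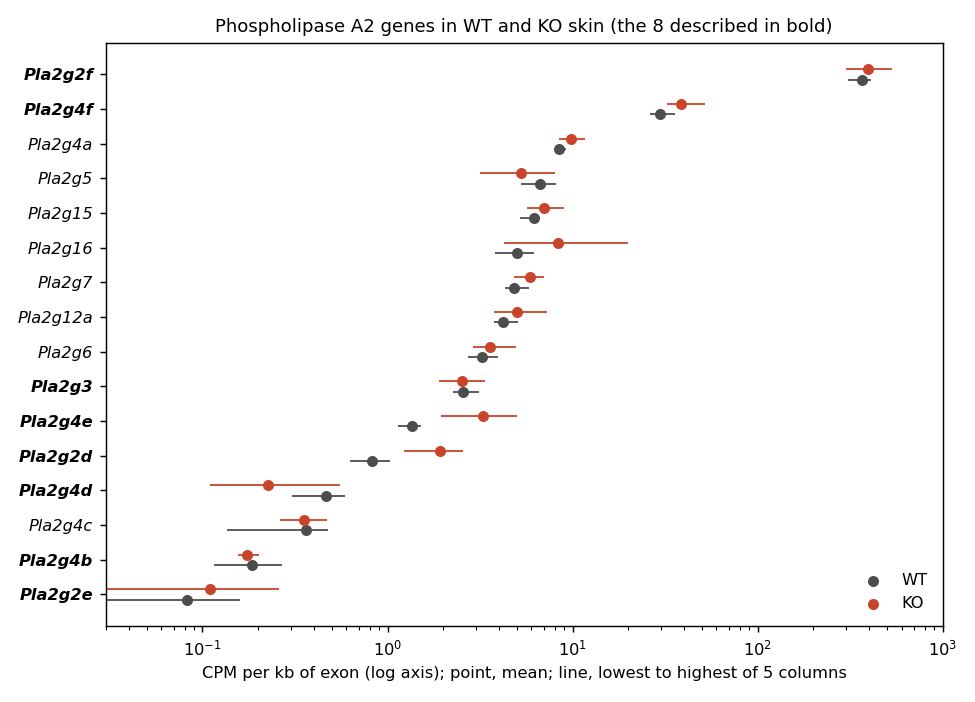
CPM per kb of exon (horizontal axis, log scale) of 16 phospholipase A2 genes in WT (grey) and KO (red), ordered by the WT mean, with a point for the mean and a line from the lowest to the highest of 5 samples (lines of Pla2g2e run to the left edge because samples at 0 cannot be drawn on a log axis). The 8 genes described are in bold, Pla2g2f is at the top with 365 CPM per kb in WT, and Pla2g4e moves from 1.35 to 3.28 CPM per kb.

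Among the KO samples, KO replicate 3, the sample with the lowest Pla2g4e and Pla2g2d, had the highest Pla2g4d, whereas KO replicates 1, 2 and 4 combined high Pla2g4e with Pla2g4d at 0.571 CPM or less. After the mean of each genotype was subtracted, Pearson's r of log2(CPM + 0.5) over the 15 samples was 0.63 between Pla2g4e and Pla2g2d, 0.57 between Pla2g4e and Pla2g4f, and -0.57 between Pla2g4e and Pla2g4d. Pla2g2f and Pla2g3 had the highest r of any pair of members, 0.84. Further pairs without Pla2g4e reached 0.70 (Pla2g3 and Pla2g4b), 0.65 (Pla2g4b and Pla2g4f) and -0.55 (Pla2g2d and Pla2g4d). The pairs nearest to 0 were Pla2g4b and Pla2g4d with 0.10 and Pla2g4d and Pla2g4f with -0.12. These coefficients are a description, since the samples share title series and differ in depth.

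**Figure D4:**
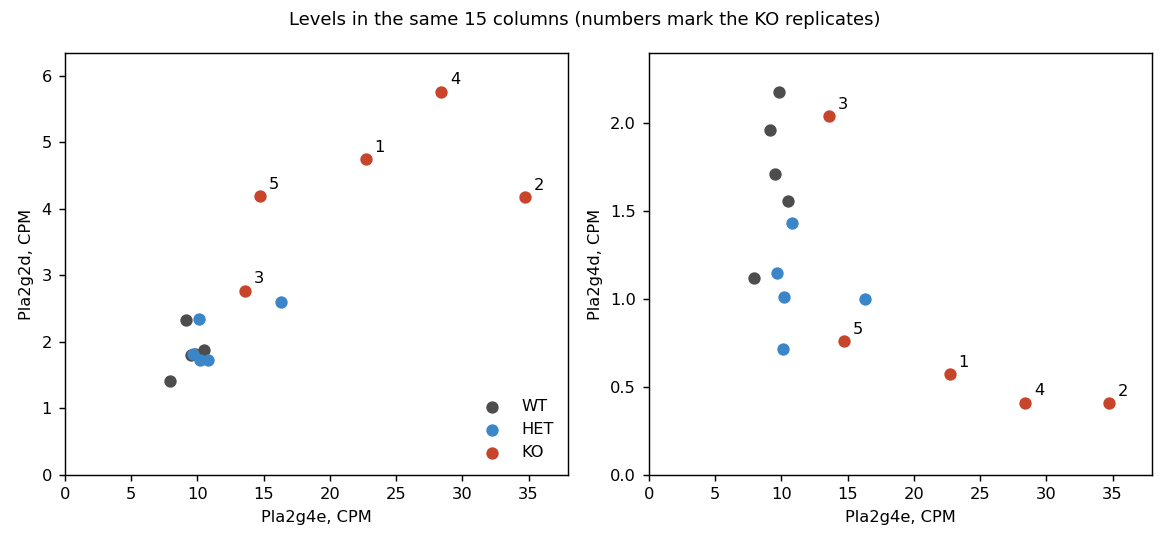
CPM of Pla2g2d (left) and Pla2g4d (right) on the vertical axes against CPM of Pla2g4e on the horizontal axes in the same 15 samples, coloured by genotype, with the KO replicate numbers beside their points. KO replicate 3 (13.6 CPM of Pla2g4e) lies nearest to the WT samples on the left and among them in height on the right.

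In 9 sample numbers there were 2 libraries each, WT replicate 2 with its unlike pair among them. Their differences were taken on log2(CPM + 0.5), which makes them smaller for genes of low CPM. For Pla2g4e the median absolute difference between the 2 libraries was 0.0581. The largest was 0.304, in KO replicate 1, where the libraries gave 20.4 and 25.3 CPM. For Pla2g2d the median was 0.305 and the largest 0.495, in HET replicate 2, where the libraries gave 2.97 and 1.96 CPM. The other low genes differed by up to 0.579 for Pla2g4d, in WT replicate 4, and 0.539 for Pla2g4b, in WT replicate 2. KO replicate 3 was low in Pla2g4e in both libraries, at 13.4 and 13.7 CPM, and KO replicate 2 was high in both, at 35.9 and 32.6 CPM. Fitted within each title series, the KO minus WT difference of Pla2g4e was 1.28 in the series of 15 libraries and 1.23 in that of 9, that of Pla2g2d was 1.24 and 1.08, that of Pla2g4f was 0.35 and 0.50, and that of Pla2g4d was -1.25 and -0.73 (log2). All sample numbers of the series of 9 also occur in the series of 15, so these fits do not rest on separate sets of samples.

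The genes whose pattern over the 15 samples was most like that of Pla2g4e, by Pearson's r among 14629 genes of at least 1 CPM on average, were Ephx3 (0.96), an epoxide hydrolase of epidermal lipids, Pcdh1 (0.95), a protocadherin, Gpr160 (0.95), Pde12 (0.94) and Pinlyp (0.94), which is named for its similarity to phospholipase inhibitors. With genotype means subtracted, the leading genes were Pcdh1 (0.92), RP23-309A11.9 (0.92), Ephx3 (0.90), Gpr160 (0.89) and Hbegf (0.89), a growth factor of the EGF family. For Ephx3 the KO samples ran from 49.8 to 87.6 CPM and the WT samples from 37.6 to 47.3 CPM. For Pla2g2d the leading genes were Krt16 (0.95), a keratin of stressed epidermis, Gjb2 (0.95), the connexin 26 gene, Pglyrp3 (0.94), a peptidoglycan recognition protein, Homer2 (0.94) and Slc5a8 (0.93), a monocarboxylate transporter. With genotype means subtracted these gave way to Lct (0.90), Prnp (0.87), RP23-281H4.3 (0.87), Ide (0.86) and Fgfbp3 (0.85), whose KO minus WT differences were between -0.10 and 0.47 on the log2 scale. Since Pla2g4e and Pla2g2d were chosen as higher in KO, the rankings without subtraction favour other genes higher in KO, and nothing is read from that. Each of these rankings shows the highest of 14629 values over 15 samples. How high the leading values would be for unrelated genes was not tested. Pla2g2d held 29 to 158 counts per sample, and Lct averaged 0.984 CPM in WT.

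Krt16 was 440, 334, 54.5, 420 and 176 CPM in KO replicates 1 to 5, against 15.4 to 37.7 CPM in WT, and KO replicate 3 was again the lowest KO sample. The summed level of 5 suprabasal and granular keratinocyte markers ran from 53775 to 76941 CPM in WT and from 67279 to 100874 CPM in KO, with HET between 53799 and 71478 CPM, with 1 of the 5, Ivl, passing adjusted p of 0.1 as higher in KO. The 5 neutrophil markers summed to 7.62 to 18 CPM in WT, 8.63 to 32.2 in HET and 14.3 to 77.3 in KO, with most of the sum from S100a8 and S100a9, which keratinocytes also make, with 0 of the 3 tested passing, and with Ly6g and Elane too low to test. The 5 dendritic and Langerhans cell markers summed to 9.72 to 12.3 CPM in WT and 7.58 to 9.43 CPM in KO, with HET between 4.59 and 11.3 CPM, 0 of the 2 tested passing and Cd207 at 3 counts or fewer in every sample. The 4 macrophage markers summed to 158 to 279 CPM in WT and 138 to 271 CPM in KO, with HET between 159 and 242 CPM, and 0 of the 4 passed. The part of these cell types in the levels of Pla2g4e and Pla2g2d was not tested.

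The members fall into 2 clusters and a single gene in the annotation. Pla2g4b, Pla2g4e, Pla2g4d and Pla2g4f lie together on chromosome 2, Pla2g2f, Pla2g2d and Pla2g2e on chromosome 4, and Pla2g3 on chromosome 11. The nearest tested genes outside the chromosome 2 cluster, Jmjd7 and Vps39, had KO minus WT differences of -0.21 ± 0.25 and 0.01 ± 0.07 (adjusted p of 0.647 and 0.966 by edgeR). Those outside the chromosome 4 cluster, Camk2n1 and Otud3, had differences of -0.12 ± 0.13 and 0.29 ± 0.12 (adjusted p of 0.625 and 0.207). Those beside Pla2g3, Rnf185 and Smtn, had differences of -0.03 ± 0.08 and -0.21 ± 0.16 (adjusted p of 0.832 and 0.468; log2, SE). None of these 6 neighbours passed the threshold. Inside the chromosome 2 cluster, the tested genes Sptbn5 and Ehd4 differed by -0.07 ± 0.21 and -0.17 ± 0.11 (adjusted p of 0.882 and 0.4 by edgeR). Inpp5j, within the span of Pla2g3, differed by -0.00 ± 0.24 (adjusted p = 0.995 by edgeR).

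Around the members, 79 genes of 7 lists cover the other phospholipases A2, the patatin-like phospholipases, and the enzymes and receptors that use the released lipids, and 70 of them were tested. In KO against WT, 1 of the 70 was higher and 0 were lower at an adjusted p of 0.1, beside 0.614% and 0.538% of all genes. In KO against HET 0 passed in either direction, beside 0.146% and 0.187% of all genes, and 11 of the 70 had an unadjusted p below 0.05, where 16.0% of all genes did. In HET against WT 0 passed and 1 of the 70 had an unadjusted p below 0.05, where 1.58% of all genes did. At an unadjusted p below 0.05, 14 of the 70 differed between KO and WT, 20% of them, against 19.3% of all genes, a share close to the background. Their median KO minus WT difference was 0.12, against -0.01 over all genes tested (log2).

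**Figure D5:**
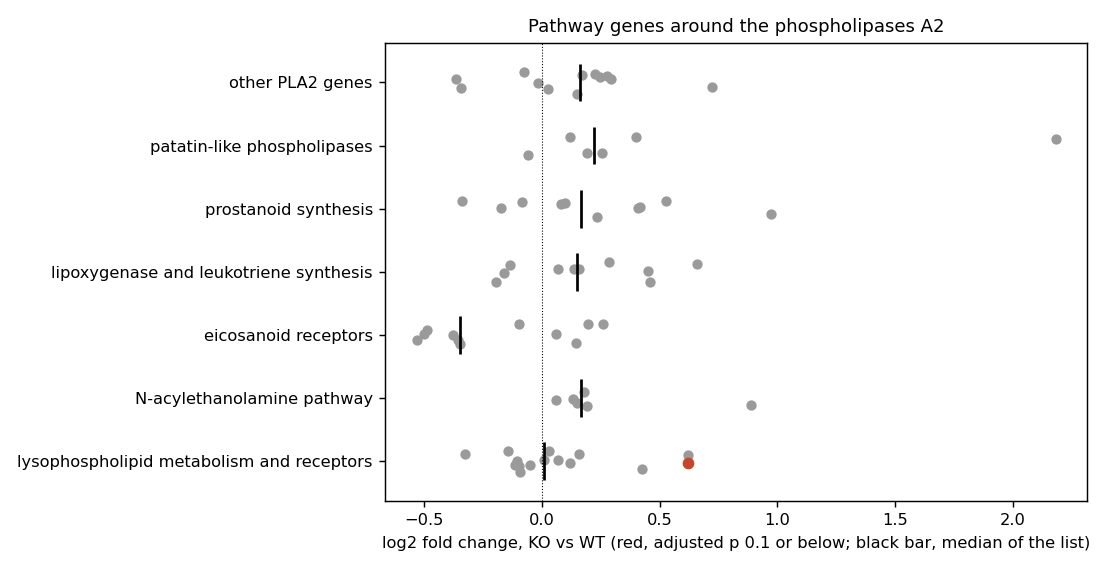
Log2 fold change in KO vs WT (horizontal axis) of the 70 tested pathway genes, 1 point per gene, in the 7 lists (rows), with a black bar at the median of each list and red for an adjusted p of 0.1 or below. Lpar2 in the lowest row is the only red point, at 0.62, and Pnpla2 in the patatin-like row lies farthest right, at 2.18.

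The gene that passed was Lpar2, a receptor for lysophosphatidic acid. It measured 7.23 to 10.9 CPM in WT with a mean of 9.34 ± 1.44, 8.85 to 13.3 CPM in HET, and 10.9 to 16.5 CPM in KO with a mean of 14.4 ± 2.20 (SD, n = 5). It was 0.62 ± 0.14 higher in KO than in WT (log2, SE; adjusted p = 0.0891 by edgeR), with 4 of 5 KO samples above every WT sample. It passed in 11 of 25 alternative fits and was higher in KO in all of them. Another receptor of this lipid, Lpar5, had the same difference with a wider error, 0.62 ± 0.19 (adjusted p = 0.122), and Lpcat3, an acyltransferase that returns fatty acids to lysophospholipids, differed by 0.42 ± 0.22 (adjusted p = 0.301) and by 0.15 without KO replicate 4. Lpar5 passed in 5 of the 25 alternative fits. Of the 15 genes of this list, 1 passed.

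Among the 6 tested genes of the N-acylethanolamine pathway, in which Pla2g4e has its own place, 0 passed. Faah, the hydrolase that degrades N-acylethanolamines, measured 13.5 to 27.6 CPM in WT and 26.4 to 49.1 CPM in KO, with 4 of 5 KO samples above every WT sample and a difference of 0.89 ± 0.23 (adjusted p = 0.101 by edgeR). Faah passed in 9 of the 25 alternative fits, DESeq2 among them. Abhd4, an enzyme of the alternative route to N-acylethanolamines, differed by 0.19 ± 0.12, and Hrasls, an older symbol for the N-acyltransferase gene Plaat1, by 0.18 ± 0.23 (adjusted p of 0.386 and 0.687). Leaving out 1 sample took Abhd4 to 0.08 (KO replicate 4) and Hrasls to between 0.00 (WT replicate 4) and 0.33 (WT replicate 1). The list's median difference was 0.16 (log2).

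Of the 10 prostanoid synthesis genes 0 passed. By edgeR 4 had an unadjusted p below 0.05 in KO against WT, 3 higher and 1 lower. That is 40% of the list, against 19.3% of all genes. Shares were 33.3% for the other phospholipase A2 genes, 33.3% for the patatin-like phospholipases and 20% or less in the remaining lists. Ptges, which makes prostaglandin E2, measured 27.7 to 47.4 CPM in WT and 40.6 to 61.4 CPM in KO, a difference of 0.53 ± 0.14 (adjusted p = 0.102 by edgeR). Ptgs1, the constitutive cyclooxygenase, measured 73.2 to 94.2 CPM in WT and 89.2 to 143 CPM in KO, a difference of 0.42 ± 0.12 (adjusted p = 0.114). Ptges passed in 9 and Ptgs1 in 6 of the 25 alternative fits, DESeq2 among them for both. Ptgs2, the inducible cyclooxygenase, was 0.403 to 2.55 CPM in WT and 0.811 to 10.2 CPM in KO, and its difference of 0.97 ± 0.65 (adjusted p = 0.412) was -0.39 without KO replicate 4. The list's median difference was 0.17 (log2).

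Of the 10 lipoxygenase and leukotriene genes 0 passed, and 0 had an unadjusted p below 0.05 in KO against WT. The epidermal lipoxygenases Alox12e, Alox12b and Aloxe3 differed by 0.46 ± 0.25, 0.28 ± 0.24 and -0.19 ± 0.23 (log2, SE; adjusted p of 0.313, 0.524 and 0.659 by edgeR). Without KO replicate 2 Alox12b differed by 0.04 and Aloxe3 by -0.48, and without WT replicate 4 they differed by 0.49 and -0.06. Aloxe3 also differed by -0.06 without KO replicate 1 and by -0.12 without KO replicate 3. The 11 tested eicosanoid receptors had a median difference of -0.35, the lowest of the 7 lists. Of these receptors 0 passed, and 0 had an unadjusted p below 0.05 in KO against WT by edgeR. Among them the prostacyclin receptor Ptgir, the prostaglandin F receptor Ptgfr and the thromboxane receptor Tbxa2r differed by -0.50 ± 0.24, -0.49 ± 0.25 and -0.36 ± 0.17 (adjusted p of 0.262, 0.293 and 0.265), with Ptgfr at -0.30 without KO replicate 4. In the 25 alternative fits the receptor gene Ptger3 passed in 2, as higher in KO, and Ptgir in 1, as lower. The fibroblast markers, of which 0 of 4 passed, had a median difference of -0.27 in the same samples. Their sums were 16781 to 26570 CPM in WT, 10686 to 21504 CPM in KO and 14667 to 23332 CPM in HET. The 6 mast cell markers, of which 0 passed, had the same median difference, -0.27. They summed to 1196 to 1898 CPM in WT, 740 to 1631 CPM in KO and 978 to 1993 CPM in HET. The part of either cell type in the receptor levels was not tested.

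The other phospholipase A2 genes gave a similar picture, with 0 of 12 tested genes passing and a median difference of 0.16 (log2). Pla2g16, a phospholipase of fat tissue, differed by 0.72 ± 0.44 and by 0.11 without KO replicate 4, Pafah1b3, a subunit of a platelet-activating factor acetylhydrolase, by -0.37 ± 0.12, and Pla2g5, which lies between the members of the chromosome 4 cluster, by -0.34 ± 0.19 (adjusted p of 0.372, 0.145 and 0.316 by edgeR). Pla2g5 differed by -0.55 without KO replicate 2 and by -0.20 without KO replicate 1. Pafah1b3 passed in 3 of the 25 alternative fits. Pla2g4a, the classical arachidonate-releasing enzyme, had 8.4 ± 0.57 CPM per kb in WT and 9.82 ± 1.19 in KO, above Pla2g4e in both. Pla2g1b and Pla2g2a were listed at 0 counts in all samples.

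Of the 6 tested patatin-like phospholipases 0 passed. Pnpla2, the triglyceride lipase of fat cells, ranged from 26.3 to 89.4 CPM among WT samples, from 42 to 388 among HET samples and from 40.7 to 695 among KO samples, with a difference of 2.18 ± 0.87 (adjusted p = 0.205 by edgeR) that was 1.05 without KO replicate 4. Pnpla8, a mitochondrial and peroxisomal phospholipase, differed by 0.40 ± 0.13 with all 5 KO samples above every WT sample (adjusted p = 0.145), and by 0.25 without KO replicate 4. It passed in 5 of the 25 alternative fits, and Pnpla2 in 2. Pnpla3 differed by 0.25 ± 0.30 (adjusted p = 0.654) and by -0.16 without KO replicate 4.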

How the data were processed

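Poly(A) RNA from dorsal skin was made into directional libraries (NEBNext Ultra II). The deposited values are raw read counts per gene symbol for 24 libraries, which the authors made with STAR and HTSeq according to the submitters' processing notes, versions not given. Those notes name the human build hg19 whereas the rows are mouse symbols, so the mouse build, annotation and strand setting are not given in the sources used here, and positions are those of GRCm38. Libraries sharing genotype and title number were summed to 15 samples.

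Counts were fitted with edgeR 4.0.16 (TMM, filterByExpr, robust quasi-likelihood, all genotypes in 1 fit) in R 4.3.3, with Benjamini-Hochberg adjustment over 17094 genes that held 99.9% of the counts. DESeq2 1.42.0 was an alternative. The scripts were tested on simulated counts. CPM uses TMM-scaled totals, and exon lengths are unions from GENCODE vM21. The detection limit given for Pla2g2e covers counting error only, whereas each SD and SE includes the spread between samples.

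The members, the gene and marker lists and the tests were chosen with earlier results of these data known. Named genes were the members, pathway genes with an adjusted p of 0.1 or below, the 3 genes per list with the largest KO vs WT difference among those of 20 or more counts per sample on average, the 5 genes most correlated with Pla2g4e and with Pla2g2d with and without genotype means, and the nearest tested neighbours. Pla2g1b, Pla2g2a, Pla2g4a, Ptger3, Sptbn5, Ehd4, Inpp5j, Ivl, S100a8, S100a9 and the low markers were named after their values were seen. Promoter motifs were chosen after the data were seen. Of the other marker lists, basal keratinocyte, T cell, erythroid and skeletal muscle had 0 genes passing in KO vs WT.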

Additional observations from a re-analysis of the deposited data

Results flagged for a closer look

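In groups of 5 samples, the highest or lowest sample stood apart from the others by Dixon's criterion (a gap of more than 0.71 of the group's range) in 12 of 84 groups examined over the members and the named pathway genes. Chance gives about 1 in 20 groups, and genes that vary together within a sample are not independent.

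Among the members, Pla2g4e was high in HET replicate 2, at 16.3 CPM (ratio 0.832), and that sample was also the highest HET sample for Krt16, at 86.7 CPM. Pla2g4d was high in KO replicate 3, at 2.04 CPM (0.783), the KO sample with the lowest Krt16, at 54.5 CPM. Pla2g4f was high in KO replicate 2, at 166 CPM (0.748), where Krt16 was 334 CPM, within the range of the other KO samples.

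Among the pathway genes, HET replicate 3 stood out for Pla2g16 at 92.5 CPM (0.871), Pnpla2 at 388 CPM (0.913) and Pnpla3 at 6.66 CPM (0.720). KO replicate 4 stood out for Pla2g16 at 127 CPM (0.806), Pnpla2 at 695 CPM (0.728), Ptgs2 at 10.2 CPM (0.942) and Lpcat3 at 77.6 CPM (0.833). Ptges was high in WT replicate 4 at 47.4 CPM (0.819), and Alox12b in KO replicate 2 at 488 CPM (0.716). The cause of these values was not tested.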

How the results depend on the processing

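The 25 alternatives were RLE factors, no low-count filter, DESeq2, 24 separate libraries, each title series alone, only the 2 genotypes compared, a Y-linked covariate, a covariate for presence in both series, WT replicate 2 as 2 columns, and leaving out each of the 15 samples. No paired analysis was possible because the sample numbers are not shared between genotypes. The signs of the KO differences of Pla2g4e, Pla2g2d, Pla2g4d and Pla2g4f held in all of them, and 0 members passed in HET vs WT in any. The number of members counted as higher in KO vs WT was 2, but 0 in the smaller series alone (9 libraries) and 1 with only the 2 genotypes, and 2 in every fit without 1 sample. In KO vs HET it was 1, but 2 with DESeq2, 0 in the smaller series and 0 with only the 2 genotypes, and it ranged from 0 to 2 when samples were left out: 2 without HET replicate 2, KO replicate 3 or KO replicate 5, and 0 without HET replicates 1, 3 or 5 or KO replicates 1 or 4. Pathway genes passing in KO vs WT numbered 1, but 3 with RLE factors, 2 without the filter, 8 with DESeq2, 16 with separate libraries, 3 in the larger series alone, 6 with WT replicate 2 as 2 columns, and 0 in the smaller series, with only the 2 genotypes or with the Y-linked covariate. Without 1 sample they ranged from 0 to 8, with 8 without KO replicate 5, 7 without WT replicate 4, 5 without KO replicate 3, 2 without HET replicate 4 and 0 in the other 11 fits (without WT replicates 1, 2, 3 or 5, HET replicates 1, 2, 3 or 5, or KO replicates 1, 2 or 4). In KO vs HET they numbered 0, but 6 with DESeq2 and 16 with separate libraries, and 0 to 5 without 1 sample, the 5 without KO replicate 5. In KO vs WT the direction turned in the smaller series for Ptgs2 (-0.82), Pnpla3 (-0.27) and Abhd4 (-0.03). Without 1 sample Ptgs2 ranged from -0.39 to 1.26 and Pnpla3 from -0.16 to 0.42, with both lowest without KO replicate 4. Over all genes, 197 passed in KO vs WT, with 360 with RLE factors, 1443 with DESeq2, 3798 with separate libraries, 370 in the larger and 3 in the smaller series, 24 with only the 2 genotypes, 46 with the Y-linked and 83 with the both-series covariate, 1195 with WT replicate 2 as 2 columns, and 29 to 1878 without 1 sample (29 without WT replicate 2, 1660 without WT replicate 4, 1878 without KO replicate 5). The causes of these changes were not tested. By design, separate libraries count repeat libraries as samples, and the smaller series holds fewer samples. Depth limits Pla2g2e, Pla2g4b and Pla2g4d most.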
